A study of Mus musculus with 12 samples.

Results

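The genes described are 10 that encode the signalling apparatus of the T cell receptor: the CD3 chains (Cd3d, Cd3e, Cd3g and Cd247), the co-receptors (Cd4, Cd8a and Cd8b1), the kinases Lck and Zap70, and the inhibitory surface protein Cd5. They were chosen by symbol from the 54532 genes of the count table, and each symbol matched 1 row. RNA had been sequenced from 12 tumours of B16F10, a pigmented mouse melanoma line, grown in the skin of mice. The 6 iKO libraries came from tumours in Trex1 fl/fl-R26CreERT2-ki/wt hosts and the 6 Ctrl libraries from tumours in Trex1 wt/fl-R26CreERT2-ki/wt hosts, and Trex1 encodes an exonuclease that degrades DNA in the cytosol. R26CreERT2 is a tamoxifen-activated Cre recombinase expressed from the Rosa26 locus, carried by both groups, and the implanted melanoma cells were wild type in both groups. The hosts, males by their labels and 8 to 12 weeks old, were implanted on both legs. They were given 1 mg of tamoxifen for 3 days from day 5, and their tumours were collected on day 14. Ctrl hosts therefore also had a floxed Trex1 copy, Cre and tamoxifen, and the Cre was not restricted to a cell type. The labels name the sorted cells as lacking both CD45, the leukocyte surface marker, and CD31, an endothelial one, whereas the protocol text has 1 or the other lacking. Which library came from which mouse is not labelled, and each mouse was implanted on both legs, so the p-values describe variation between libraries that need not be separate animals.

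A T cell reads antigen with a receptor whose own chains have almost no part inside the cell. The signal is carried by the CD3 chains and by the zeta chain that Cd247 encodes, whose tails hold tyrosine motifs. CD4 or CD8, binding to MHC class II or class I, brings the kinase Lck to these tails, and Lck phosphorylates them and so recruits and activates Zap70. CD8 on cytotoxic T cells is mostly a pair of an alpha chain (Cd8a) and a beta chain (Cd8b1). Several of these genes are not restricted to T cells in mice: natural killer cells use Cd247, Lck and Zap70, some dendritic cells carry CD8 alpha chains without the beta chain or CD4, and a class of B cells carries CD5.

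The start regions of the clustered CD3 genes are shown because these chains rose together. Those of Lck are shown because it has separate start sites and differed from the other genes in the Ctrl libraries. Cd3g, Cd3d and Cd3e lie within 40.1 kb of mouse chromosome 9, and Cd3g and Cd3d are transcribed away from each other with 1355 bases between their starts. Each sequence is a RefSeq window (GRCm38.p6) from 250 bases before to 50 bases after a start site, 5′ to 3′ on the gene's strand. Capitals mark GGAAGT or its reverse complement ACTTCC, letters bound by ETS factors, and TGTGGT or ACCACA, letters bound by RUNX factors.
Cd3d (chr9:44981536-44981835, plus strand): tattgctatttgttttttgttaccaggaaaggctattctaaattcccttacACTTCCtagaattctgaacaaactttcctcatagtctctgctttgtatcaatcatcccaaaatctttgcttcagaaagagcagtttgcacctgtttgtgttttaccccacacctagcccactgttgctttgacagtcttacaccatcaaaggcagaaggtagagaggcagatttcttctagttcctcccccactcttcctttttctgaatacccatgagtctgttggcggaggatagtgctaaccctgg
Cd3g (chr9:44980382-44980681, minus strand): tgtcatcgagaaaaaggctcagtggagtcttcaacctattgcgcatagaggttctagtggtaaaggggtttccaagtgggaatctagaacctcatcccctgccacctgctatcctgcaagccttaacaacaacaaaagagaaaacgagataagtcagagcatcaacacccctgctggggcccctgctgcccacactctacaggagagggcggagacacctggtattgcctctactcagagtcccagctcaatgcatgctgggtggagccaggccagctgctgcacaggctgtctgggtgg
Cd3e (chr9:45009562-45009861, minus strand): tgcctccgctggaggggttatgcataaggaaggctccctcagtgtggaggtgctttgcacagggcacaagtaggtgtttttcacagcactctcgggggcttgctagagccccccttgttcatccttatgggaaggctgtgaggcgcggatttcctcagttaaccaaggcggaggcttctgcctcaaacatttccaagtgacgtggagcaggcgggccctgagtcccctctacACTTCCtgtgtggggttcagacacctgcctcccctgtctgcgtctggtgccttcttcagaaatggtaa
Lck, upstream start (chr4:129573592-129573891, minus strand): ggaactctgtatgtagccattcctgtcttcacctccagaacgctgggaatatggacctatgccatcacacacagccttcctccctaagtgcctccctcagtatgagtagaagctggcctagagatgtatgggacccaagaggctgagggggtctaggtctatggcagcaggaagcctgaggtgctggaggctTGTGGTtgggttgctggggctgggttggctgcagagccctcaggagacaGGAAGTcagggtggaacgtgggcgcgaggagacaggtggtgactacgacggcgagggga
Lck, downstream start (chr4:129558323-129558622, minus strand): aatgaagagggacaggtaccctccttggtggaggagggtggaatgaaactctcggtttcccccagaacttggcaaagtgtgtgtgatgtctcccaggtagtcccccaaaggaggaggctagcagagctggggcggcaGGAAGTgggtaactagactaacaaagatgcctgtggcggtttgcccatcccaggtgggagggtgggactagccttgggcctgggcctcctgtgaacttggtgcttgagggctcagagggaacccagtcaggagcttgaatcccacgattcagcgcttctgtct
The ETS letters began 199 bases before the Cd3d start, 18 bases before the Cd3e start, 9 bases before the upstream Lck start and 113 bases before the downstream one, and were not in the Cd3g window. The RUNX letters began 58 bases before the upstream Lck start. RefSeq windows were found for 8 of the 10 genes, 11 windows in all; 7 of the 11 held the ETS letters and 2 the RUNX letters, on either strand and with no overlap between the motifs. Of 32544 such windows over all genes, 23.7% held the ETS letters and 16.7% the RUNX letters. The E2A form of the E-box, CACCTG or its reverse complement CAGGTG, was also searched and is not marked. It was in each window shown, 2 times in that of Cd3g, and in 20.3% of the windows over all genes. A match is a description of letters, not a binding site. The Lck start sites are 15.3 kb apart, and the counts per gene do not say from which of them the reads came.

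Libraries held 29808243 to 45828565 counts. Trex1 had 0 counts in all 12 libraries, so the genotype could not be checked from it. The melanoma markers Mlana, Pmel, Tyr, Tyrp1, Dct, Sox10 and Mitf summed to 15053 to 21454 CPM in iKO and 21548 to 21937 CPM in Ctrl (CPM, library-size-scaled counts with TMM factors), so pigment cells were present in every library. Ptprc, which encodes CD45, averaged 191 ± 108 CPM in iKO and 3.10 ± 6.12 CPM in Ctrl (SD, n = 6 each), although the labels describe a sort against that protein. The log2 fold change of Ptprc was 5.98 ± 1.20 (SE; edgeR, adjusted p = 0.00244), and 8.35 without Ctrl 5. Pecam1, which encodes CD31, averaged 10.9 ± 3.72 CPM in iKO and 4.18 ± 0.70 CPM in Ctrl (SD, n = 6 each). A pair of libraries stood apart from their groups: iKO 1 was low in leukocyte transcripts, with Ptprc at 17.4 CPM, and Ctrl 5 was high, at 15.6 CPM. The labels give males throughout, but Xist, an RNA of female cells, was at 219 CPM in iKO 2, 117 CPM in iKO 3 and at most 8.39 CPM elsewhere. Genes of the Y chromosome had 44 counts in iKO 2 and 0 in iKO 3, against 107 to 1513 in the other libraries. The sex of the hosts of these iKO libraries is therefore uncertain. Without iKO 2 and iKO 3 the tested genes of the set kept log2 fold changes of 1.99 (Lck) to 7.90 (Cd8b1), all past the threshold.

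Of the 10 genes 9 passed the filter on low counts, and all 9 rose in iKO (edgeR quasi-likelihood test, Benjamini-Hochberg adjusted p under 0.05), where 25.0% of the 16164 tested genes rose and 21.4% fell. Cd247 did not pass, because iKO 1 held only 6 counts of it, and was tested in a fit without the filter, in which it also rose; 14.1% of 29337 genes rose and 12.9% fell there. A gene that is nearly silent in Ctrl passes the filter only through its iKO libraries. The count of 9, the fold changes and the separation of the groups are therefore not independent of the direction. The median log2 fold change was 6.72 over the 9 genes and 0.023 over all tested genes. All of the 9 but Lck averaged under 1 CPM in Ctrl, and of 3043 tested genes at that level 34.0% rose and the median was 0.67. In 8 of the 9 tested genes every iKO library lay above every Ctrl library, and Cd4 was the exception. The share over tested genes of any Ctrl level was 11.8%, and the filter favours such separation in genes near silent in Ctrl. All 10 genes were lowest in iKO 1 among the iKO libraries, and 8 of the 10 were highest in Ctrl 5 among the Ctrl libraries. In bulk RNA, more cells of a type and more RNA per cell cannot be told apart.

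**Figure D1:**
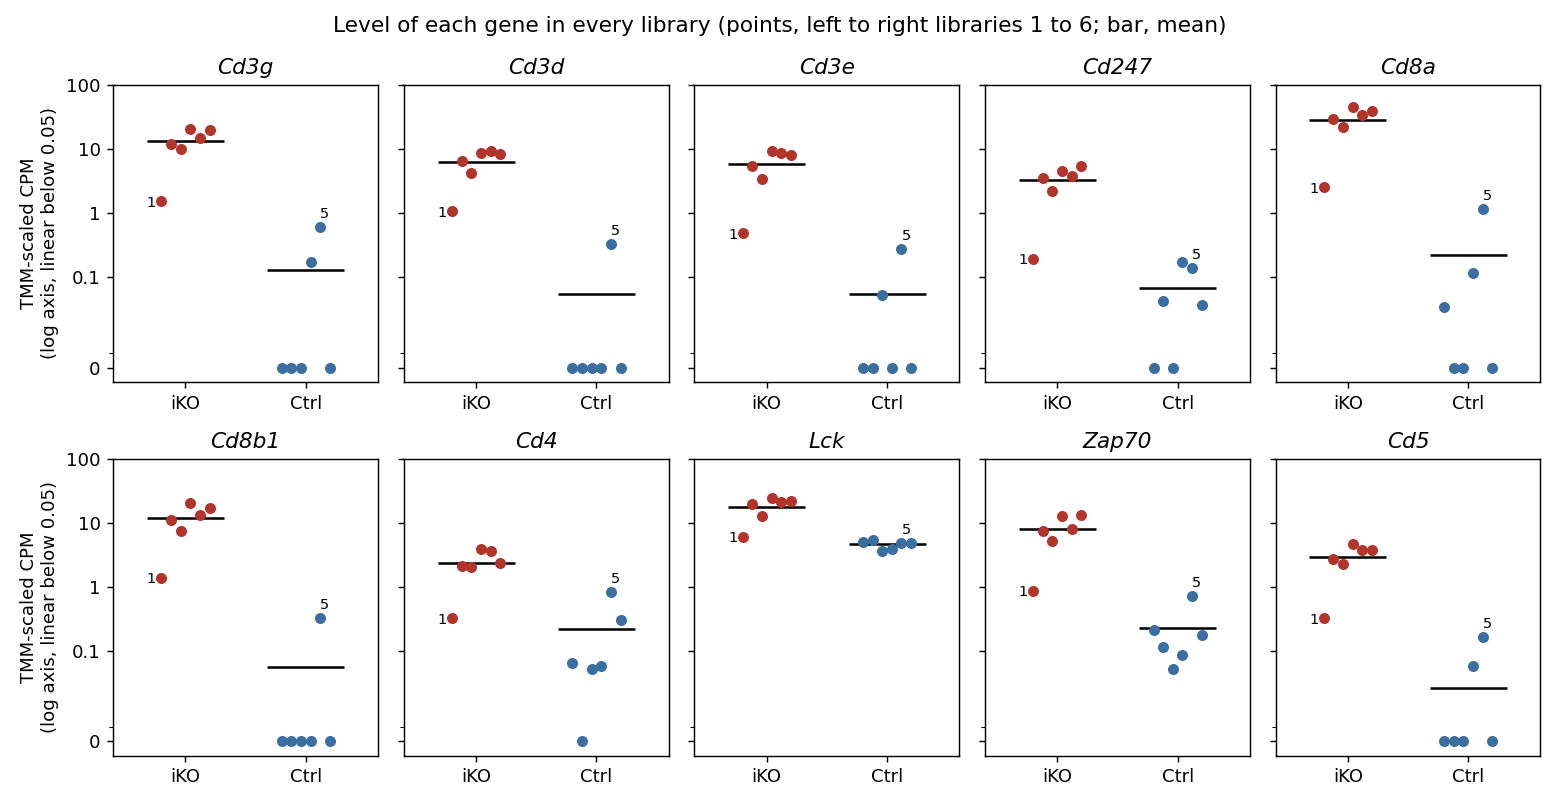
TMM-scaled CPM of the 10 genes in each library (points; left to right libraries 1 to 6 of each group; horizontal bar, group mean; logarithmic axis, linear below 0.05), with iKO 1 and Ctrl 5 numbered. In all, 8 genes were at 0 in at least 1 Ctrl library, whereas Lck was at 3.61 to 5.40 CPM in every Ctrl library.

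The CD3 gamma, delta and epsilon chains, which pair within the receptor complex, were close to absent from the Ctrl libraries. These were made from sorted cells, so the values do not describe whole tumours. Cd3g (ENSMUSG00000002033, mm10 chromosome 9, 44969572 to 44980431) ranged from 1.52 to 20.3 CPM in iKO with a median of 13.2 CPM, and from 0 to 0.607 CPM in Ctrl with a median of 0. Cd3d (ENSMUSG00000032094, chromosome 9, 44981786 to 44987339) ranged from 1.07 to 9.35 CPM in iKO (median 7.48) and was at 0 in 5 Ctrl libraries and 0.331 CPM in Ctrl 5. Cd3e (ENSMUSG00000032093, chromosome 9, 44998740 to 45009627) ranged from 0.485 to 9.34 CPM in iKO (median 6.79) and from 0 to 0.276 CPM in Ctrl (median 0). For these chains iKO 1 was the low iKO library and Ctrl 5 the high Ctrl library, and the groups did not overlap. A count of 0 allows up to 3 counts, which is 0.0642 to 0.102 CPM depending on the library.

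The fitted fold changes of the 3 chains lay within 1 SE of each other. Cd3g averaged 13.1 ± 7.04 CPM in iKO and 0.130 ± 0.244 CPM in Ctrl (SD, n = 6 each), higher in iKO by 6.72 ± 1.11 on the log2 scale (SE; edgeR, adjusted p = 0.000738). Cd3d rose by 6.88 ± 1.04 on that scale (edgeR, adjusted p = 0.000350) and Cd3e by 6.77 ± 1.04 (edgeR, adjusted p = 0.000381). These sizes rested on Ctrl 5. Without it, the other 5 Ctrl libraries held no Cd3d count against 1243 in iKO, at least 442-fold higher in iKO with 3 counts over those libraries as the floor. Cd3e then had 1147 counts in iKO and 2 in Ctrl, a ratio of 611 after scaling for library size (95% counting interval 169 to 5054), and Cd3g had 2550 counts in iKO and 6 in Ctrl, a ratio of 453 (208 to 1236). These intervals, and those given below for Cd8a and Cd5 without Ctrl 5, pool the libraries of a group. They leave out the variation between libraries. Of the Cd3e exon bases 3.31% are shared with Gm48719 on the opposite strand, and none of the exon bases of Cd3d or Cd3g is shared.

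Cd3g had the most counts of the 3 chains in each iKO library, with no scaling for length. Cd3g made up 44.8% to 57.4% of the summed Cd3g, Cd3d and Cd3e counts in the iKO libraries, Cd3d 22.7% to 34.7% and Cd3e 15.8% to 26.6%. The Cd3g share was lowest in iKO 5 (95% Clopper-Pearson interval 41.8% to 47.8%) and highest in iKO 3 (53.5% to 61.4%). In Ctrl 5, with 44 counts in all, Cd3g had 22 of them, Cd3d made up 27.3% and Cd3e 22.7% (95% Clopper-Pearson interval for Cd3e 11.5% to 37.8%). In iKO 1, with 95 counts, Cd3e took 15.8% (9.12% to 24.7%), the lowest Cd3e share among the 6 iKO libraries. The other Ctrl libraries held 0 to 6 counts of the 3 chains, too few for a proportion.

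Cd247, which encodes the zeta chain, was the least certain of the CD3 genes. It (ENSMUSG00000005763, chromosome 1, 165788681 to 165877277) ranged from 0.194 to 5.49 CPM in iKO with a median of 3.68 CPM, and from 0 to 0.175 CPM in Ctrl with a median of 0.0453 CPM. The highest Ctrl library was Ctrl 4, with 6 counts, as many as iKO 1 held in a smaller library. The groups did not overlap, but iKO 1 and Ctrl 4 were close. In the fit without the filter Cd247 rose by 5.55 ± 0.90 on the log2 scale (SE; edgeR, adjusted p = 0.000781). Of its 5329 exon bases 60.3% are shared with exons of Gm16565 or of Pou2f1, which lies on the opposite strand, and the libraries did not keep strand, so part of its reads could not be assigned to it with certainty.

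Both chains of CD8 rose by more than 100-fold in the fitted values. Cd8a (ENSMUSG00000053977, chromosome 6, 71373427 to 71379173) ranged from 2.52 to 44.8 CPM in iKO with a median of 31.5 CPM, and from 0 to 1.16 CPM in Ctrl with a median of 0.0214 CPM. Cd8b1 (ENSMUSG00000053044, chromosome 6, 71322788 to 71337494) ranged from 1.39 to 20.3 CPM in iKO (median 12.2), and was at 0 in 5 Ctrl libraries and 0.331 CPM in Ctrl 5. The groups did not overlap for either chain. Cd8a averaged 28.6 ± 15.0 CPM in iKO and 0.220 ± 0.462 CPM in Ctrl (SD, n = 6 each), higher in iKO by 7.09 ± 1.15 on the log2 scale (SE; edgeR, adjusted p = 0.000701). Cd8b1 averaged 11.7 ± 6.72 CPM in iKO and 0.0552 ± 0.135 CPM in Ctrl, higher in iKO by 7.76 ± 1.09 on the log2 scale (edgeR, adjusted p = 0.000263). Without Ctrl 5, Cd8b1 had no Ctrl count against 2270 in iKO, at least 807-fold higher in iKO with the same floor, and Cd8a had 5564 counts in iKO and 6 in Ctrl, a ratio of 989 (95% counting interval 454 to 2695).

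Cd8b1 was counted less often than Cd8a in each iKO library. For every 100 Cd8a counts the iKO libraries held 34.1 to 55.1 Cd8b1 counts. The highest was iKO 1, whose 95% counting interval of 37.1 to 81.0 overlapped those of the other 5 iKO libraries, and the lowest was iKO 3 (29.5 to 39.2), whose interval lay below that of iKO 4 (41.2 to 50.1). In Ctrl 5 there were 28.6 Cd8b1 counts for every 100 Cd8a counts (13.7 to 55.3), and the other Ctrl libraries held 6 Cd8a counts and no Cd8b1 count together.

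Cd4 rose as well, with the smallest fitted fold change among the 8 genes of the set that are not kinases; differences between genes were not tested. It (ENSMUSG00000023274, chromosome 6, 124864692 to 124888221) ranged from 0.323 to 3.84 CPM in iKO with a median of 2.24 CPM, and from 0 to 0.828 CPM in Ctrl with a median of 0.0612 CPM. The groups overlapped, because Ctrl 5 with 30 counts lay above iKO 1 with 10. Cd4 averaged 2.39 ± 1.27 CPM in iKO and 0.218 ± 0.317 CPM in Ctrl (SD, n = 6 each), higher in iKO by 3.45 ± 0.85 on the log2 scale (SE; edgeR, adjusted p = 0.00555), and 4.56 without Ctrl 5. Ctrl 6 held 14 Cd4 counts and no count of Cd3d, Cd3e, Cd3g, Cd8a or Cd8b1.

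The ratio of Cd8a to Cd4 counts was higher in iKO. In iKO libraries 1 to 6 it was 7.80, 14.0, 10.9, 11.7, 9.20 and 16.6, on 88 to 1432 counts of both genes together. In Ctrl, Ctrl 5 had a ratio of 1.4 on 72 counts (95% interval 0.856 to 2.32), below the interval of every iKO library, of which the lowest, that of iKO 1, was 4.02 to 16.9. Ctrl 6 had 0 Cd8a against 14 Cd4 counts, a ratio of at most 0.301, and the remaining Ctrl libraries held only 0 to 6 counts of both genes together. These had 2 Cd8a and 3 Cd4 counts in Ctrl 1, no count of either in Ctrl 2, 0 and 2 in Ctrl 3, and 4 and 2 in Ctrl 4. Scaled by gene length the ratio was 8.65 to 18.3 in iKO libraries and 1.55 in Ctrl 5.

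With 0.5 added to each count, the log2 ratio averaged 3.49 ± 0.41 in iKO and -1.06 ± 2.17 in Ctrl (SD, n = 6 each), a difference of 4.54 (exact two-sided permutation test, p = 0.00216, the smallest that 6 against 6 libraries can give). The Ctrl side of this test is thin, because the value of Ctrl 2, with no count of either gene, is set by the added 0.5 alone, and Ctrl 1, Ctrl 3 and Ctrl 4 held 2 to 6 counts. With so few counts, Ctrl 2 and Ctrl 3 could not have reached the lowest iKO value, 2.90 in iKO 1, whatever their true ratio. Part of the separation, and so of this p-value, was therefore fixed in advance. The size depended on the added count and on Ctrl 6: it was 3.84 with 3 added to each count and 3.78 without Ctrl 6. Restricted to libraries with at least 10 counts of both genes, which left 6 iKO and 2 Ctrl libraries, the difference was 5.68 (exact permutation test, p = 0.0357, the smallest that 6 against 2 can give). Counting intervals cover counting error only, and of the gene counts from 1 to 20 in a library 66.7% to 69.3% were even, so reads may not be independent and the intervals may be too narrow.

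**Figure D2:**
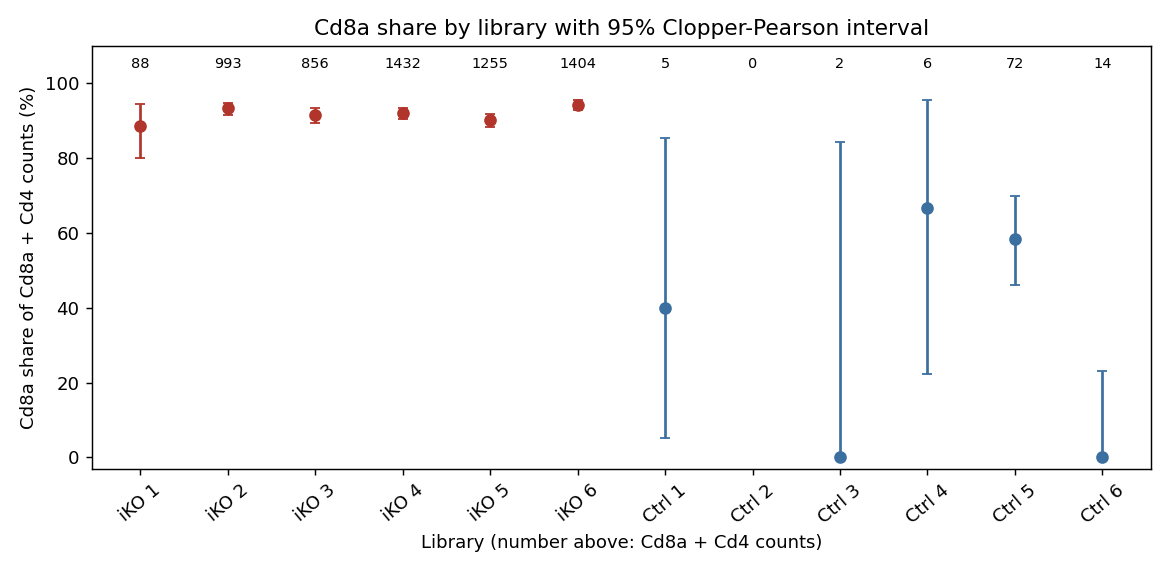
Cd8a share of the summed Cd8a and Cd4 counts (percent, vertical axis) in each library, with 95% Clopper-Pearson intervals; the numbers along the top are the summed counts. The iKO libraries lay between 88.6% and 94.3%, whereas Ctrl 5 was at 58.3% and most Ctrl libraries had too few counts for a narrow interval.

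Lck, the kinase that starts the signal, was the gene of the set that exceeded 1 CPM in every Ctrl library. It (ENSMUSG00000000409, chromosome 4, 129548344 to 129573641) ranged from 6.07 to 24.04 CPM in iKO with a median of 20.2 CPM, and from 3.61 to 5.40 CPM in Ctrl with a median of 4.79 CPM. The groups did not overlap, but iKO 1 was close to the Ctrl libraries, and Ctrl 5 was within the range of the other Ctrl libraries. Lck averaged 17.5 ± 6.78 CPM in iKO and 4.59 ± 0.68 CPM in Ctrl (SD, n = 6 each), higher in iKO by 1.93 ± 0.27 on the log2 scale (SE; edgeR, adjusted p = 0.000148). The 5 Ctrl libraries other than Ctrl 5 together held 955 Lck counts, against 8 of Cd3d, Cd3e and Cd3g. Of the Lck exon bases 0.854% are shared with another annotated gene, Mir8119.

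Above that Ctrl level, Lck was higher in the iKO libraries that held more CD3. The Lck level of an iKO library minus the Ctrl mean of 4.59 CPM was 1.48 CPM in iKO 1 and 8.20 to 19.5 CPM in the others. Per 100 CPM of summed Cd3d, Cd3e and Cd3g it was 46.2 to 62.8 CPM across the 6 iKO libraries, with iKO 1 at 48.3. This quotient is a description of these libraries. In Ctrl the same difference centres on 0 by construction, because the Ctrl mean is subtracted, and lay within 1 CPM of 0 in every library. The list of genes for natural killer cells, which can carry Lck, summed to 3.04 to 67.1 CPM in iKO and 0.320 to 2.29 CPM in Ctrl. Its highest means in iKO were those of Klrk1 (21.9 CPM) and Klrd1 (7.89 CPM), whereas Ncr1 was at 2.24 CPM. Whether the reads of this list came from natural killer cells or from T cells, and their part in the Lck level, was not tested.

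**Figure D3:**
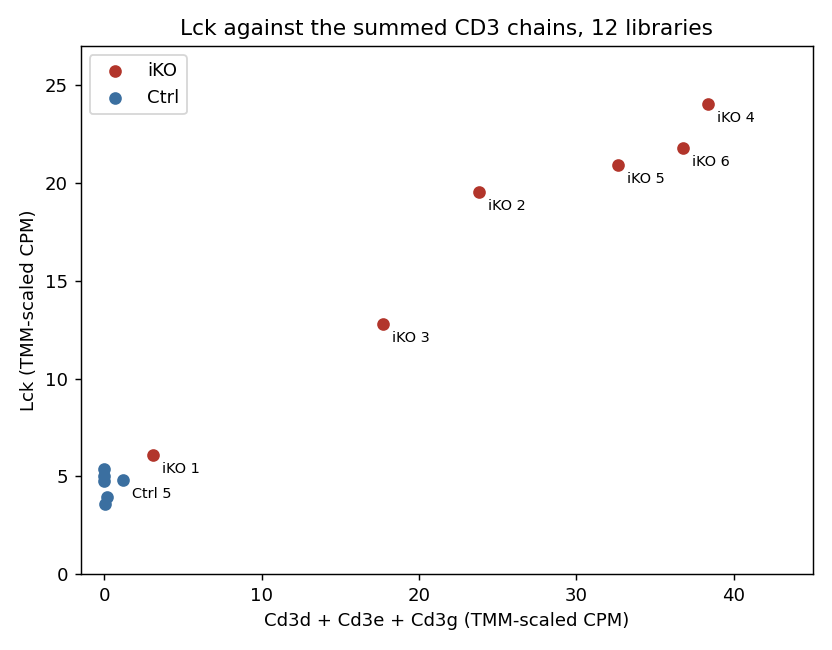
Lck (TMM-scaled CPM, vertical axis) against the summed Cd3d, Cd3e and Cd3g (TMM-scaled CPM, horizontal axis) in 12 libraries. The Ctrl libraries lie at 3.61 to 5.40 CPM of Lck with almost no CD3, and the iKO libraries extend to 24.04 CPM.

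Zap70, the kinase that binds the phosphorylated tails, was low but detected in every Ctrl library. It (ENSMUSG00000026117, chromosome 1, 36761798 to 36782818) ranged from 0.872 to 13.2 CPM in iKO with a median of 7.70 CPM, and from 0.0527 to 0.717 CPM in Ctrl with a median of 0.146 CPM. The groups did not overlap, with iKO 1 the lowest iKO and Ctrl 5 the highest Ctrl library. Zap70 averaged 7.88 ± 4.64 CPM in iKO and 0.227 ± 0.247 CPM in Ctrl (SD, n = 6 each), higher in iKO by 5.11 ± 0.74 on the log2 scale (SE; edgeR, adjusted p = 0.000260), and 5.87 without Ctrl 5.

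Cd5, a surface protein that restrains receptor signalling, was also close to absent from the Ctrl libraries. It (ENSMUSG00000024669, chromosome 19, 10718143 to 10738974) ranged from 0.323 to 4.65 CPM in iKO with a median of 3.23 CPM, and from 0 to 0.166 CPM in Ctrl with a median of 0. Only Ctrl 4 and Ctrl 5 held any Ctrl count, and the groups did not overlap. Cd5 averaged 2.91 ± 1.52 CPM in iKO and 0.0373 ± 0.0670 CPM in Ctrl (SD, n = 6 each), higher in iKO by 6.29 ± 0.89 on the log2 scale (SE; edgeR, adjusted p = 0.000150). Without Ctrl 5 it had 566 counts in iKO and 2 in Ctrl, a ratio of 302 (95% counting interval 83.1 to 2497).

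**Figure D4:**
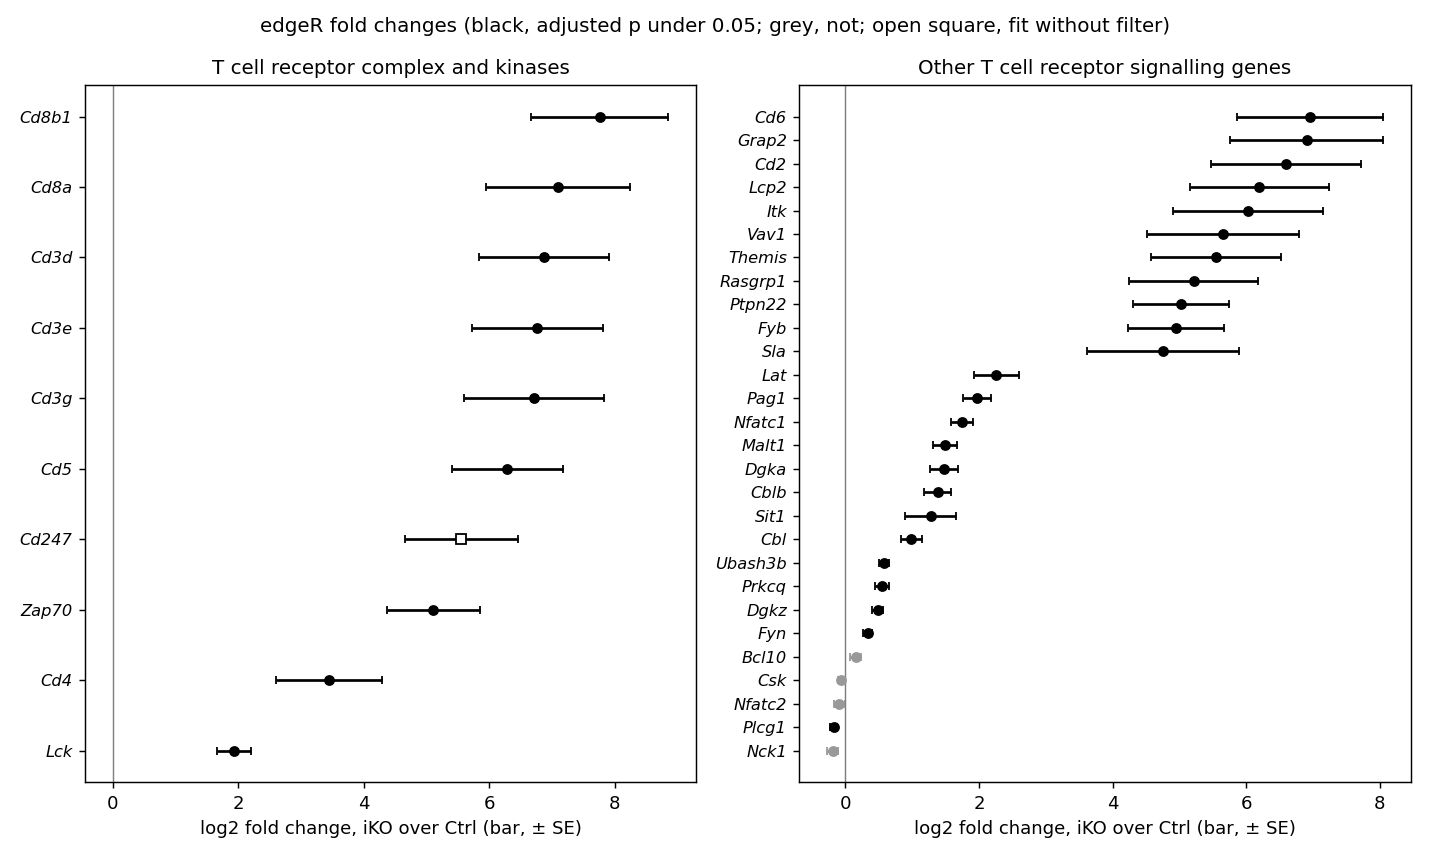
Log2 fold changes, iKO over Ctrl, with SE, for the 10 genes (left) and other tested genes of T cell receptor signalling (right; 1 is not shown); black marks passed the adjusted p threshold, grey did not, and the open square is Cd247 from the fit without the filter. Cd8b1 is at 7.76 and Lck at 1.93, and on the right Lat is at 2.26 and Plcg1 at -0.17.

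Levels per length put both CD8 chains at the top of the set in iKO. Cd8b1 had 7.91 ± 4.53 CPM per kb of the authors' gene length and Cd8a 7.87 ± 4.12, with each above the other in 3 of 6 libraries. Lck followed with 5.98 ± 2.31 CPM per kb, below Cd8a in 5 of 6 libraries, then Cd3g with 4.01 ± 2.15 and Cd3d with 3.51 ± 1.77, of which Cd3g was the higher in 4 of 6. Zap70 was at 2.63 ± 1.55 CPM per kb, below Cd3d in 6 of 6 libraries, and Cd3e at 1.45 ± 0.85, below Zap70 in 6 of 6. The order of the last 4 was less sure. Cd3e was above Cd5 in 4 of 6 libraries. Cd5 had 1.41 ± 0.74 CPM per kb, Cd247 0.618 ± 0.350 and Cd4 0.592 ± 0.316, but with the 4928 exon bases that GENCODE M21 gives Cd5 in place of the authors' 2069 its level would be 0.591 CPM per kb. Cd247 was above Cd4 in 2 of 6 libraries only, and with 60.3% of the Cd247 exon bases shared with other genes its level per kb is uncertain. In Ctrl, Lck was first at 1.57 ± 0.23 CPM per kb, and the next, Zap70, was at 0.0759 ± 0.0826.

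Set against Ptprc, the leukocyte phosphatase that also acts on Lck, the CD3 genes varied less than in CPM. The summed Cd3d, Cd3e and Cd3g counts were 10.5 to 17.7 per 100 Ptprc counts across the 6 iKO libraries, although Ptprc itself ranged from 17.4 to 345 CPM. The value for iKO 1, the library with the least of both, was 17.7 (95% counting interval 14.0 to 22). Ctrl 5 held as much Ptprc as iKO 1 but 7.80 CD3 counts per 100 (5.60 to 10.6), an interval below those of 4 iKO libraries and overlapping those of iKO 3 and iKO 4. Per 100 Ptprc counts, Cd8a was at 13.0 to 18.6 in iKO and 7.45 in Ctrl 5, whereas Cd4 was at 1.05 to 1.86 in iKO and 5.32 in Ctrl 5. Zap70 was at 3.06 to 5.84 in iKO and 4.61 in Ctrl 5. The other Ctrl libraries held 6 to 53 Ptprc counts each.

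**Figure D5:**
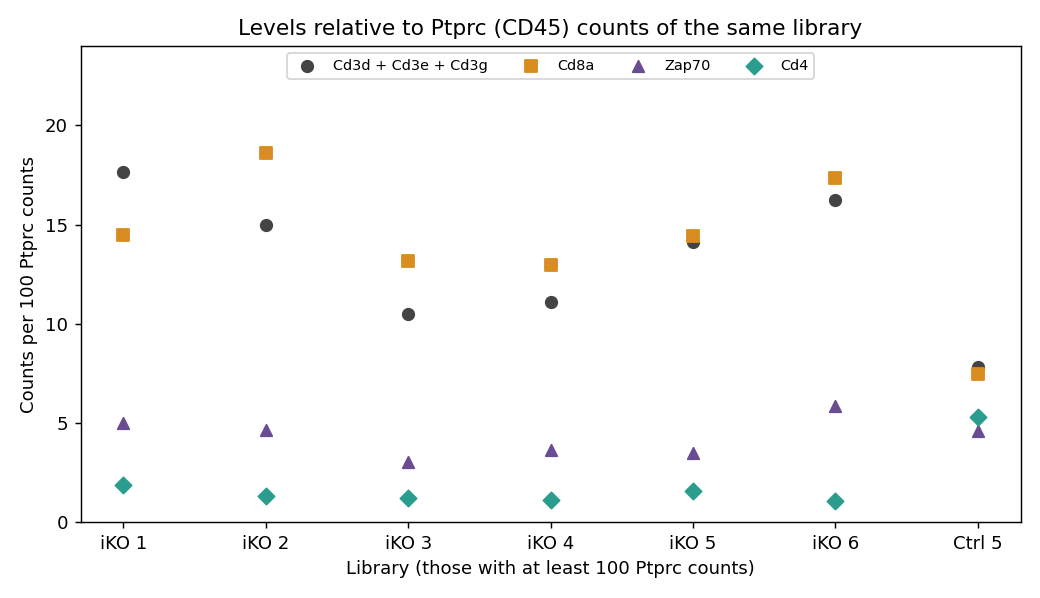
Counts of the summed CD3 chains, Cd8a, Zap70 and Cd4 per 100 Ptprc counts (vertical axis) in the 7 libraries with at least 100 Ptprc counts. Cd4 lies at 1.05 to 1.86 in the iKO libraries and at 5.32 in Ctrl 5.

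Other T cell genes and other leukocyte genes moved alongside. Of 10 further T cell markers 9 were tested and all 9 rose, where 25.0% of all tested genes did, among them the receptor constant regions Trac (10.6 ± 6.08 CPM in iKO and 0.150 ± 0.218 CPM in Ctrl), Trbc1 (6.92 ± 3.61 CPM in iKO and 0.173 ± 0.402 CPM in Ctrl) and Trbc2 (9.54 ± 5.64 CPM in iKO and 0.138 ± 0.338 CPM in Ctrl; SD, n = 6 each). The whole list summed to 26.5 to 114 CPM in iKO and 15.1 to 19.0 CPM in Ctrl, where Tcf7, a transcription factor, made up most of it at a mean of 16.1 CPM. Most tested T cell and natural killer markers were under 1 CPM in Ctrl and passed the filter mainly through iKO, so their calls are not independent of the direction. Of 3043 tested genes at that Ctrl level 34.0% rose. Cd2, Cd6 and Trat1 of the T cell list are also in the signalling list below. Against the same 25.0%, the other lists differed in how many of their genes rose. Of 9 natural killer cell genes 3 were tested and rose. Of 9 dendritic cell genes 4 of 5 tested rose, and the list summed to 13.4 to 109 CPM in iKO and 7.73 to 14.8 CPM in Ctrl. All 8 macrophage genes rose, and that list summed to 204 to 1769 CPM in iKO and 14.6 to 284 CPM in Ctrl. Of 6 B cell genes 1 of 2 tested rose, with sums of 2.13 to 15.2 CPM in iKO and 0.304 to 2.51 CPM in Ctrl. No listed gene of these types was at 0 throughout iKO, whereas Klra4 and Klra8 of the natural killer list, Ms4a1 of the B cell list and Trdc, Tcrg-C1 and Tcrg-C2 of the gamma delta T cell list were at 0 throughout Ctrl. Of 5 gamma delta T cell genes 1 of 2 tested rose, and their sum was 0.711 to 5.17 CPM in iKO and 0.0527 to 0.408 CPM in Ctrl. The leukocyte list summed to 69.2 to 1169 CPM in iKO and 2.13 to 88.7 CPM in Ctrl, the endothelial list to 13.5 to 50.7 CPM in iKO and 11.3 to 14.7 CPM in Ctrl, and the fibroblast list to 400.4 to 9457 CPM in iKO and 1430 to 1660 CPM in Ctrl. All 6 leukocyte genes and 3 of 5 endothelial genes rose. Of 5 fibroblast genes edgeR called 0 (1 at an unadjusted p under 0.05), limma voom 0 and DESeq2 2 higher. By edgeR 6 of 7 melanoma genes fell, where 21.4% of all tested genes fell. The part of these cell types in the values of the 10 genes was not tested.

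Most of the other genes of T cell receptor signalling that could be tested also rose. Of 36 listed 29 were tested; 24 rose, 1 fell and 4 did not pass, against 25.0% rising and 21.4% falling among all tested genes, with a median log2 fold change of 1.75 against 0.023. The Ctrl level enters the fold change, and a gene near 0 in Ctrl could pass the filter only through iKO, so values are set beside all tested genes of the same Ctrl level. Of the 29 genes 12 were under 1 CPM in Ctrl, and all 12 rose, with a median log2 fold change of 5.84; of 3043 tested genes at that level 34.0% rose and the median was 0.67. Of the 17 signalling genes at 1 CPM or more in Ctrl 12 rose, with a median of 0.58. Of 13121 tested genes at that level 22.9% rose and the median was -0.034. Those 17 genes were present in Ctrl, where the CD3 chains were close to absent, so the list does not mark T cells alone. Which cells its reads came from was not tested.

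The signalling genes with the smallest p were all at 1 CPM or more in Ctrl. Lat, the adaptor that Zap70 phosphorylates, averaged 6.47 ± 2.78 CPM in iKO and 1.35 ± 0.46 CPM in Ctrl (SD, n = 6 each; log2 fold change 2.26 ± 0.33). Nfatc1, a transcription factor activated by calcium, averaged 20.1 ± 5.08 CPM in iKO and 5.96 ± 0.83 CPM in Ctrl (1.75 ± 0.16). Each of these rose, as did the next 4. Pag1, an adaptor that holds the inhibitory kinase Csk at the membrane, averaged 8.67 ± 2.58 CPM in iKO and 2.20 ± 0.30 CPM in Ctrl (1.98 ± 0.21). Malt1, a protease of the NF-kB branch, averaged 32.0 ± 8.93 CPM in iKO and 11.4 ± 0.90 CPM in Ctrl (1.49 ± 0.17). Inhibitors of the pathway were among them. Dgka, a kinase that removes diacylglycerol, averaged 13.8 ± 4.45 CPM in iKO and 4.97 ± 0.84 CPM in Ctrl (1.47 ± 0.21), and Ubash3b, a phosphatase that acts against Zap70, averaged 52.3 ± 6.55 CPM in iKO and 35.0 ± 1.64 CPM in Ctrl (0.58 ± 0.08). Plcg1, the phospholipase that Lat recruits, averaged 94.3 ± 5.68 CPM in iKO and 106 ± 4.64 CPM in Ctrl (SD, n = 6 each) and was the gene that fell, by 0.17 on the log2 scale with an SE of 0.05 (edgeR, adjusted p = 0.0153). Its call was lost without Ctrl 2 (adjusted p = 0.0591) and without iKO 2 and iKO 3 together (adjusted p = 0.0686).

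Within iKO the levels of the set followed a shared profile, and Lck lay farthest from it on the log2 scale. Lck ordered the 6 iKO libraries as the summed CD3 chains did, but over a range of 1.98 log2 units against 3.07 to 4.12 for Cd3d, Cd3e and Cd3g. Its Ctrl level, described above, was not subtracted here. Over the 6 iKO libraries, the root mean square distance of a gene's centred log2 CPM from the mean profile of Cd3d, Cd3e and Cd3g was 0.119 for Cd5, 0.137 for Cd8b1, 0.195 for Zap70, 0.228 for Cd8a, 0.295 for Cd4, 0.322 for Cd247 and 0.586 for Lck, and 1.26 for the median protein-coding gene. Among 12551 other protein-coding genes of at least 1 CPM in iKO, the nearest were Gimap4, a GTPase of lymphocytes (0.123), Pced1b (0.131), Ccdc88b (0.131), Ms4a4b (0.132), the interleukin receptor chain Il18rap (0.144) and the costimulatory receptor Icos (0.147). These distances share the low values of iKO 1 and the scaling of each library.

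Genes next to the CD3, CD8 and CD4 loci, chosen by position after the data were seen, had mostly small changes. Ube4a, 3972 bases from Cd3g, averaged 85.7 ± 3.84 CPM in iKO and 76.4 ± 6.87 CPM in Ctrl (SD, n = 6 each), a log2 fold change of 0.16 ± 0.06. On the far side of Cd3e the nearest tested gene, Jaml, which encodes an adhesion molecule of leukocytes, was 5.33 ± 1.09 higher on the log2 scale (edgeR, adjusted p = 0.00220). Beside the CD8 pair, whose genes are 35.9 kb apart, Krcc1 had a log2 fold change of -0.21 ± 0.07 and Rmnd5a one of -0.071 ± 0.068. Beside Cd4, Gpr162 was at 0.34 ± 0.15 and Lag3, which encodes an inhibitory receptor that binds MHC class II, at 3.26 ± 0.35, with 15.4 ± 6.83 CPM in iKO and 1.6 ± 0.42 CPM in Ctrl (SD, n = 6 each; edgeR, adjusted p = 2.54e-05).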

How the data were processed

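The authors deposited raw counts for each Ensembl gene, and the values are whole, with totals that differ between libraries; the authors also deposited a gene length in bases, another quantity per gene used for levels per kb. The build listed in the submitters' processing notes is mm10. The aligner and counter were not given in the sources used here. Libraries were poly-A selected and unstranded, per the labels' protocols. Tests used edgeR 4.0.16 (quasi-likelihood, robust, TMM, filterByExpr with minimum count 10 and minimum total 15, group as the only term) in R 4.3.3 over all genes, with Benjamini-Hochberg adjustment and a threshold of 0.05. The SE is the absolute log2 fold change over the square root of F. CPM are TMM-scaled. Alternatives used DESeq2 1.42.0, limma 3.58.1 (voom), RLE factors, no filter, libraries left out and a replicate block. Exon overlap came from GENCODE M21 (GRCm38). Named genes were the 10 genes, 6 signalling genes with the smallest p, those that fell, Trex1, Ptprc, Pecam1 and the 6 nearest in profile; other genes were named after their values were seen. Profiles used log2 CPM with a prior count of 2. The edgeR step was tested on simulated counts. No same-group pair of libraries was alike within sampling noise (lowest chi-square per degree of freedom 7.47 over 30 pairs). Single values of a few listed genes are not reported here. The genes and lists were chosen with earlier results of these data known.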

Additional observations from a re-analysis of the deposited data

Results flagged for a closer look

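In 8 of the 22 groups of 6 values looked at, 1 library lay far from the other 5, and in all 8 it was Ctrl 5, above the other Ctrl libraries. The nominal rate of the rule, about 1 group in 20, cannot be set against these 8. Most of them held several Ctrl libraries without a count, and all share the same library, so they are not independent. The gap to the nearest library, as a share of the whole Ctrl range, was 1.0 for Cd3d and Cd8b1, whose Ctrl counts were all in Ctrl 5. It was 0.899 for Cd8a, 0.809 for Cd3e, 0.757 for Zap70, 0.712 for Cd3g, 0.648 for Cd5 and 0.630 for Cd4. The macrophage list was at 284 CPM in Ctrl 5 and at most 38.0 CPM in the other Ctrl libraries, and the leukocyte list at 88.7 and at most 9.88 CPM. For Lck and Cd247, Ctrl 5 did not stand apart.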

How the results depend on the processing

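The 9 tested genes were called higher under every alternative run, and Cd247 too wherever it was tested: all 179 values of single genes under alternatives kept their direction and call, with adjusted p of 0.0240 or less (Cd8a with limma voom). Leaving out 1 library at a time gave 9 to 10 of the 10 genes called, 24 to 30 signalling genes higher and 0 to 2 lower, and a Cd8a to Cd4 difference of 3.78 to 4.92 (log2, lowest without Ctrl 6; exact permutation p = 0.00216 in each, the smallest those designs allow and so no measure of stability); with 1 or 3 added to each count it was 4.25 or 3.84. The number of signalling genes that fell was 2 without the filter, where Nck1 joined (as it did without iKO 5), and 0 without iKO 2 and iKO 3; fewer samples entered that fit. Without Ctrl 5 the fold change moved over 1.5 times for 8 of the 10 genes, all but Cd247 and Lck, and without iKO 1 for none. The replicate numbers did not pair the libraries: same-numbered libraries correlated over 0.1 in 2 of 6 pairs and 1 iKO library correlated best with its own number. With the replicate block 9 genes and 24 signalling genes were called higher, 1 lower, and the Cd8a to Cd4 difference was 4.54 (exact sign-flip permutation, p = 0.03125, the smallest 6 pairs allow). Depth limits the Ctrl values, since 8 genes had 0 counts in at least 1 Ctrl library.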
